A study of Rattus norvegicus with 17 samples.

Results

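The 10 genes Cdh5, Esam, Pecam1, Kdr, Flt1, Tek, Tie1, Eng, Emcn and Vwf mark endothelial cells, which line blood vessels. They were found by symbol in the deposited table of raw counts, each with 1 identifier, and they are 10 of the 30560 genes counted in fetal testes of wild-type Sprague Dawley rats. Dams received dipentyl phthalate (DPeP), a plasticizer, in corn oil by gavage from gestational day 17 to 21, and the testes of their fetuses were taken on day 21. The 17 libraries of polyA-selected RNA fell into a corn oil vehicle group (replicates 01, 08 and 15) and 4 groups given DPeP. These received 1 mg/kg/d (replicates 02, 09 and 10), 11 mg/kg/d (replicates 03, 16 and 17), 100 mg/kg/d (replicates 05, 18 and 19) or 300 mg/kg/d (replicates 06, 07, 13, 14 and 20), and values below are listed in that order. A library held RNA of 1 testis, or of 2 testes from 1 litter, so vessels were measured together with all other cells of the organ. In such bulk RNA, fewer endothelial cells and less RNA per endothelial cell cannot be told apart, and this holds for every level given here.

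The products of these genes build and steer the vessel wall. Vascular endothelial growth factor A (VEGF-A) is the main signal for vessel growth: it acts through the receptor kinase Kdr (VEGFR2), while Flt1 (VEGFR1) binds it tightly and limits what reaches Kdr. Angiopoietins act through the receptor kinase Tek (TIE2), with Tie1 as its partner, and keep grown vessels stable, and Eng (endoglin) is a co-receptor for the ligand BMP9. In the mouse, endothelial cells that enter the fetal gonad take part in laying out the testis cords. Testis vessels run through the interstitium, beside the Leydig cells that make androgen.

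Factors of the ETS family, several of which are active in endothelial cells, bind sites built around GGAA. The promoters of Flt1 and Kdr are shown because both VEGF receptors were low in the same libraries, and that of Emcn because it was high in them. They run from 250 bases before to 50 bases after the gene's start, 5′ to 3′ on the strand of the gene, and come from RefSeq on build GRCr8, whereas the counts use mRatBN7.2. They lie at chr12:12333180-12333479 (+ strand), chr14:32571813-32572112 (+ strand) and chr2:228564289-228564588 (+ strand), and capitals mark each AGGAAG, or CTTCCT where the match is on the other strand.
Flt1: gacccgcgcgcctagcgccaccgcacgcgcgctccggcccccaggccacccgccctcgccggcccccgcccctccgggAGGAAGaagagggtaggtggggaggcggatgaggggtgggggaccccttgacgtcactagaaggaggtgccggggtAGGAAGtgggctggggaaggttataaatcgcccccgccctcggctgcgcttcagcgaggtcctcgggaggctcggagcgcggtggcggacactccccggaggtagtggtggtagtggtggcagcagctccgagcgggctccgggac
Kdr: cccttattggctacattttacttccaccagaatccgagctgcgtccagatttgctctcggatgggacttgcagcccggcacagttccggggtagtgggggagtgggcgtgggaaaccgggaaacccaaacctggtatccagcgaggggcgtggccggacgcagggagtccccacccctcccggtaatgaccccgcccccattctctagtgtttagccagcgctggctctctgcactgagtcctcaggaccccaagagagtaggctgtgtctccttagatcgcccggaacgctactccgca
Emcn: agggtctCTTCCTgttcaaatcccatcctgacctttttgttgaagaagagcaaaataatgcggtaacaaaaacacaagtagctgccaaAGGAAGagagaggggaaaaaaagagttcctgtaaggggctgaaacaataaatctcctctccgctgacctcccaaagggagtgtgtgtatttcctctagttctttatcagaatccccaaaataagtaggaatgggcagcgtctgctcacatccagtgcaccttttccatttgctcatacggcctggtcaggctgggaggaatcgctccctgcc
The letters AGGAAG stood on either strand in 4 of the 5 members whose promoters were in the table (Emcn, Eng, Flt1 and Tie1, but not Kdr), against 34.5% of 33469 rat promoters of this length. In Flt1 the matches began 172 and 96 bases before the start. The FOX motif TGTTTAC, searched on both strands and sharing no letters with the ETS matches, stood in 0 of the 5, against 3.78% of all promoters. A match is a run of letters, not a binding site.

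Every member was well above the counting floor. Raw counts per library ran from 156 (the lowest of Flt1) to 4784 (the highest of Cdh5), and all 10 members passed the filter on low counts. On the TPM scale, which divides by gene length and so allows levels to be compared between genes, Cdh5 led in vehicle testes at 119 ± 13.0 TPM (SD, n = 3). Eng followed at 80.1 ± 7.83 TPM, then Emcn at 37.0 ± 0.891, Tie1 at 31.7 ± 4.34, Esam at 28.2 ± 3.54 and Pecam1 at 27.0 ± 1.46 TPM. Kdr stood at 18.4 ± 1.44, Tek at 13.9 ± 0.762, Flt1 at 7.82 ± 0.598 and Vwf at 7.47 ± 0.684 TPM. The vehicle ranges of neighbours in this order overlapped between Emcn and Tie1, Tie1 and Esam, Esam and Pecam1, and Flt1 and Vwf, and those of the other neighbours did not.

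Libraries held between 14282274 and 20323488 gene counts. At 100 mg/kg/d replicates 05 and 18 differed from the rest: mitochondrial genes took 9.05% and 7.76% of their counts, whereas the other 15 libraries had 4.35% to 6.16%. Ribosomal protein genes took 6.89% and 6.21%, against 3.81% to 4.90%. The third library of that dose, replicate 19, had a mitochondrial share of 5.26%. Markers of the labelled tissue were present: vehicle libraries held 5880 to 7312 CPM summed over 10 Leydig cell genes, 2315 to 2959 CPM over 10 Sertoli cell genes and 426 to 509 CPM over 10 germ cell genes. Log2 fold changes at 100 mg/kg/d against vehicle are therefore given with and without replicates 05 and 18.

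Together the endothelial genes were low in the testes of 2 of the 3 libraries at 100 mg/kg/d and slightly low at 300 mg/kg/d. Summed over the 10 members, the vehicle libraries held 622, 598 and 616 CPM, those at 1 mg/kg/d 589, 744 and 729 CPM, and those at 11 mg/kg/d 584, 598 and 555 CPM. At 100 mg/kg/d the sum was 308 CPM in replicate 05, 398 CPM in replicate 18 and 551 CPM in replicate 19, and at 300 mg/kg/d it was 539.8, 493, 556, 513 and 559 CPM. All 3 libraries at 100 mg/kg/d and all 5 at 300 mg/kg/d were below every vehicle library, but replicate 19 lay among the 300 mg/kg/d libraries and far above replicates 05 and 18. Cdh5 makes up much of the sum, so each member follows on its own.

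**Figure D1:**
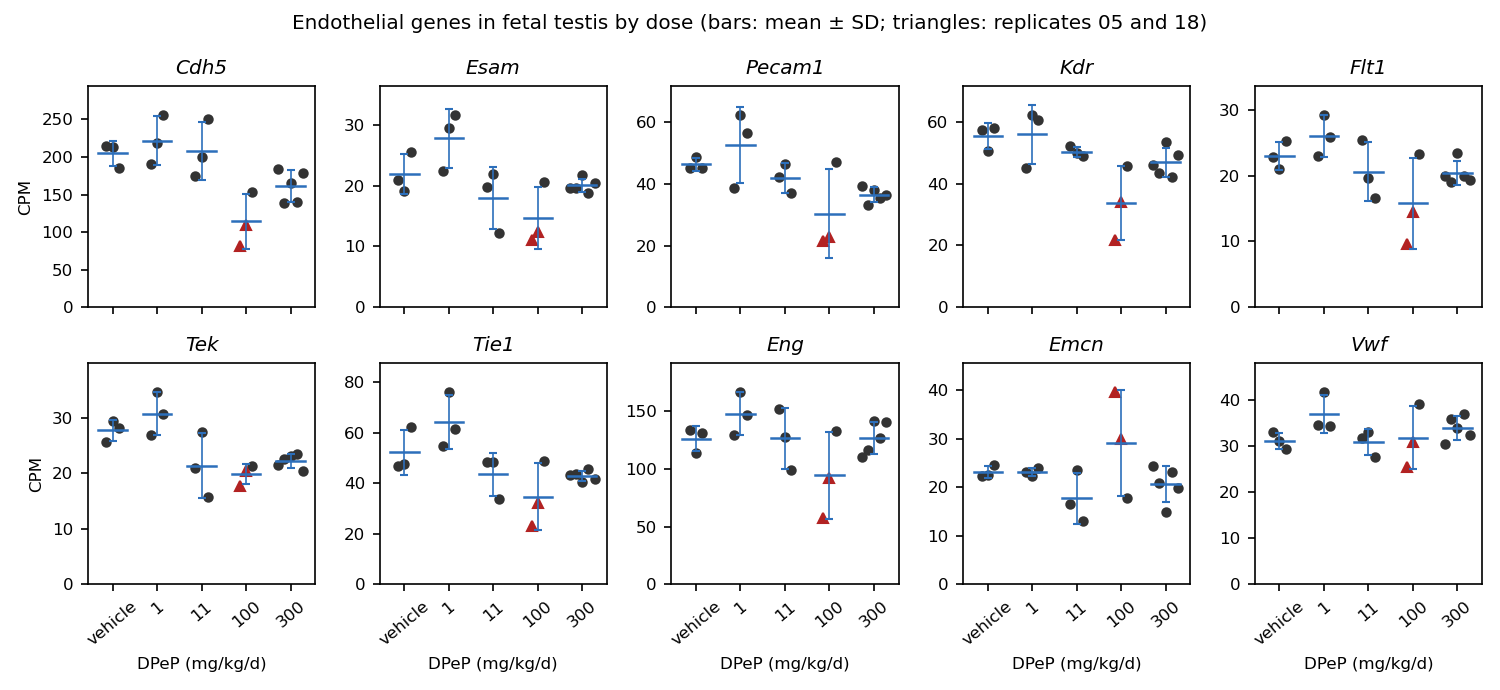
Level of each of the 10 endothelial genes in CPM (vertical axis, from 0) in vehicle libraries and at 1, 11, 100 and 300 mg/kg/d DPeP. Points are single libraries, bars are mean ± SD, and triangles are replicates 05 and 18 at 100 mg/kg/d, which are the lowest of all 17 libraries for Cdh5, Kdr and Pecam1 and the highest for Emcn.

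Cdh5 (VE-cadherin), the adhesion protein of endothelial junctions, lies on chromosome 19 from 815411 to 854368 (minus strand, ENSRNOG00000013324). Cdh5 had 214, 214 and 186 CPM in the vehicle libraries, 191, 219 and 256 CPM at 1 mg/kg/d and 175, 199.9 and 250.4 CPM at 11 mg/kg/d. Replicates 05, 18 and 19 at 100 mg/kg/d had 80.8, 109 and 154 CPM, and the libraries at 300 mg/kg/d 185, 138, 166, 140.2 and 179 CPM. Replicates 05 and 18 were the lowest of all libraries, and all 3 libraries at 100 mg/kg/d and all 5 at 300 mg/kg/d lay below every vehicle library, while those at 1 and 11 mg/kg/d overlapped vehicle. Cdh5 fell at 100 mg/kg/d, 1.79-fold lower than vehicle. Its log2 fold change was -0.84 (SE 0.185, adjusted p = 0.0238) in edgeR's quasi-likelihood test with Benjamini-Hochberg adjustment over 18005 genes. The level of replicate 19 alone gave -0.43 (adjusted p = 0.317). The call was lost when vehicle replicate 01, 08 or 15, or replicate 05 or 18, was left out, with a term for the sample code of the labels and in a fit of the 2 groups alone, at adjusted p between 0.0562 and 0.317, and it held in 5 of 13 alternatives. The value was -0.34 (SE 0.162, adjusted p = 0.372) at 300 mg/kg/d.

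Esam and Pecam1 also sit at endothelial junctions. Esam is an adhesion molecule shared with platelets, on chromosome 8 from 37238287 to 37249215 (plus strand). It had 21.0, 19.2 and 25.5 CPM in the vehicle libraries, 22.4, 29.5 and 31.7 CPM at 1 mg/kg/d and 19.8, 22.0 and 12.2 CPM at 11 mg/kg/d. It had 11.0, 12.4 and 20.6 CPM in replicates 05, 18 and 19 at 100 mg/kg/d, and 19.6, 19.7, 21.7, 18.8 and 20.4 CPM at 300 mg/kg/d. The lowest libraries were replicates 05 and 18 together with replicate 17 at 11 mg/kg/d, and replicate 19 lay within the vehicle range. Its log2 fold change at 100 mg/kg/d was -0.58 (SE 0.216, adjusted p = 0.159), and -0.11 without replicates 05 and 18.

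Pecam1 (CD31), on chromosome 10 from 91590521 to 91652116 (minus strand), is found on platelets and leukocytes as well. It had 45.0, 48.7 and 45.3 CPM in the vehicle libraries, 38.8, 62.4 and 56.7 CPM at 1 mg/kg/d and 42.2, 46.6 and 37.0 CPM at 11 mg/kg/d. Its level was 21.4, 22.7 and 47.0 CPM in replicates 05, 18 and 19 at 100 mg/kg/d and 39.4, 33.1, 38.0, 35.5 and 36.5 CPM at 300 mg/kg/d. Replicates 05 and 18 had less than any other library, replicate 19 lay within the vehicle range, and each 300 mg/kg/d library lay below all vehicle libraries. The log2 fold change was -0.61 (SE 0.218, adjusted p = 0.142) at 100 mg/kg/d, and close to 0 there without replicates 05 and 18 (0.0039). At 300 mg/kg/d it was -0.34 (SE 0.191, adjusted p = 0.476), and in a fit of these 2 groups alone it was -0.36 and passed the threshold (adjusted p = 0.0220).

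Kdr, the receptor through which VEGF-A drives endothelial growth, lies on chromosome 14 from 32217871 to 32261018 (plus strand, ENSRNOG00000046829). Kdr had 57.3, 50.7 and 58.1 CPM in the vehicle libraries, 44.9, 62.2 and 60.5 CPM at 1 mg/kg/d and 52.0, 49.7 and 48.9 CPM at 11 mg/kg/d. Replicates 05, 18 and 19 at 100 mg/kg/d had 21.7, 33.9 and 45.7 CPM, and the libraries at 300 mg/kg/d 46.1, 43.4, 53.6, 42.0 and 49.1 CPM. All 3 libraries at 100 mg/kg/d were below every vehicle library, replicate 19 by the least, and the 300 mg/kg/d libraries overlapped vehicle through replicate 13 alone. The log2 fold change at 100 mg/kg/d, -0.71 (SE 0.183, adjusted p = 0.0549), a level 1.64-fold lower than vehicle, was just short of the threshold. It passed under 5 of 13 alternatives, with adjusted p of 0.0476 with DESeq2's size factors and 0.00823 in DESeq2's Wald test. Without replicates 05 and 18 it was -0.29 (adjusted p = 0.434).

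Flt1, the VEGF receptor that holds ligand back from Kdr, lies on chromosome 12 from 7297292 to 7468626 (plus strand). It had 22.9, 21.0 and 25.2 CPM in the vehicle libraries, 22.9, 29.3 and 26.0 CPM at 1 mg/kg/d and 25.4, 19.7 and 16.6 CPM at 11 mg/kg/d. It had 9.61, 14.5 and 23.3 CPM in replicates 05, 18 and 19 at 100 mg/kg/d, and 20.0, 19.1, 23.5, 20.0 and 19.4 CPM at 300 mg/kg/d. Replicates 05 and 18 were the lowest of all libraries, whereas replicate 19 lay within the vehicle range. Its log2 fold change was -0.55 (SE 0.218, adjusted p = 0.185) at 100 mg/kg/d, and 0.0033 without replicates 05 and 18. The promoter of Flt1 shown above holds 2 AGGAAG runs and that of Kdr none, and both genes had their lowest levels in replicates 05 and 18.

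Tek, the angiopoietin receptor, lies on chromosome 5 from 109607077 to 109733804 (plus strand), and its span, but none of its exons, overlaps Eqtn on the other strand. Tek had 25.6, 29.4 and 28.3 CPM in the vehicle libraries, 26.9, 34.7 and 30.7 CPM at 1 mg/kg/d and 21.0, 27.4 and 15.7 CPM at 11 mg/kg/d. Its level was 17.8, 20.5 and 21.4 CPM in replicates 05, 18 and 19 at 100 mg/kg/d and 21.5, 22.5, 23.1, 23.5 and 20.4 CPM at 300 mg/kg/d. Every library at 100 mg/kg/d and at 300 mg/kg/d was below every vehicle library, yet the lowest of all was replicate 17 at 11 mg/kg/d. The spread at 100 mg/kg/d was small, since replicate 19 stood beside replicates 05 and 18, and the log2 fold change, -0.48 (SE 0.156, adjusted p = 0.115), was -0.40 without those 2. It was -0.38 (SE 0.155, adjusted p = 0.992) at 11 mg/kg/d and -0.32 (SE 0.138, adjusted p = 0.296) at 300 mg/kg/d, so no single dose passed the threshold over all genes.

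Across all doses Tek did pass. The slope on log2(dose + 1), fitted over the 17 libraries, was -0.055 log2 units for each doubling of dose + 1 (SE 0.0159, adjusted p = 0.0443). It ranged from -0.060 to -0.047 with 1 library left out, and was -0.050 (adjusted p = 0.0451) without replicates 05 and 18. The call held in 9 of 24 alternatives. It was lost when any vehicle library was left out, or any at 1 mg/kg/d, replicate 16 at 11 mg/kg/d, replicate 18 or 19 at 100 mg/kg/d, or replicate 06, 07 or 20 at 300 mg/kg/d. A term for the sample code, no filter on low counts and the rank of the dose ended it too, at adjusted p up to 0.178.

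Tie1, the partner of Tek, lies on the same chromosome from 132000015 to 132019592 (minus strand). It had 46.7, 47.5 and 62.3 CPM in the vehicle libraries, 54.9, 76.1 and 61.6 CPM at 1 mg/kg/d and 48.2, 48.5 and 33.6 CPM at 11 mg/kg/d. Replicates 05, 18 and 19 at 100 mg/kg/d had 22.9, 32.3 and 48.9 CPM, and the libraries at 300 mg/kg/d 43.3, 43.7, 40.3, 45.6 and 41.6 CPM. The 300 mg/kg/d libraries lay in a narrow band just under the lowest vehicle library, replicates 05 and 18 were below them, and replicate 19 lay within the vehicle range. The log2 fold change was -0.59 (SE 0.203, adjusted p = 0.133) at 100 mg/kg/d, and -0.11 without replicates 05 and 18. At 300 mg/kg/d it was -0.28 (SE 0.179, adjusted p = 0.546).

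Eng, the BMP9 co-receptor, lies on chromosome 3 from 15934518 to 15973230 (plus strand). It shares exon bases with Fpgs on the other strand, and the library kit does not mark strand, so some of its reads may belong to Fpgs and its values are uncertain. It had 134, 114 and 131 CPM in the vehicle libraries, 129, 167 and 147 CPM at 1 mg/kg/d and 152, 128 and 99.4 CPM at 11 mg/kg/d. It had 57.6, 92.2 and 133 CPM in replicates 05, 18 and 19 at 100 mg/kg/d, and 111, 116, 141, 127 and 141 CPM at 300 mg/kg/d. Only replicates 05, 18 and 17 (the last at 11 mg/kg/d), and replicate 06 at 300 mg/kg/d, lay below all vehicle libraries. The log2 fold change was -0.42 (SE 0.207, adjusted p = 0.272) at 100 mg/kg/d, and 0.06 without replicates 05 and 18.

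Emcn (endomucin), a sialomucin of venous and capillary endothelium, lies on chromosome 2 from 225891100 to 225970929 (plus strand, ENSRNOG00000022910) and ran against the rest. Emcn had 22.4, 22.6 and 24.6 CPM in the vehicle libraries, 23.1, 22.2 and 24.1 CPM at 1 mg/kg/d and 16.6, 23.5 and 13.1 CPM at 11 mg/kg/d. Its level was 39.7, 30.0 and 17.8 CPM in replicates 05, 18 and 19 at 100 mg/kg/d and 24.3, 20.8, 14.9, 23.2 and 19.9 CPM at 300 mg/kg/d. Replicates 05 and 18, the lowest libraries for most members, were the highest for Emcn, and replicate 19 was below every vehicle library. The groups at 100 mg/kg/d and vehicle thus overlapped, and the log2 fold change was 0.33 (SE 0.229, adjusted p = 0.431), and -0.40 (adjusted p = 0.511) without replicates 05 and 18. With 1461 exon bases it is the shortest of the 10 genes. In replicates 05 and 18 shorter genes tended to lie higher, with correlations across genes of -0.26 and -0.17 between log2 length and the difference from the vehicle mean. Vehicle replicate 15 had -0.17 as well, and genes are not independent replicates. With the length trend of each library removed, the log2 fold change of Emcn at 100 mg/kg/d was 0.21 (adjusted p = 0.590). In replicates 05 and 18 Esam, the next shortest (1805 exon bases), differed from the vehicle mean by -0.97 and -0.80 log2 units. The longest, Kdr (7025) and Vwf (9727), differed by -1.34 and -0.70 and by -0.28 and -0.01. The part of gene length in the level of Emcn was not tested.

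Vwf, the clotting protein stored in endothelium and platelets, lies on chromosome 4 from 158360152 to 158491539 (plus strand) and is the longest of the 10, with 9727 exon bases. It had 33.0, 31.0 and 29.4 CPM in the vehicle libraries, 34.7, 41.7 and 34.4 CPM at 1 mg/kg/d and 31.8, 33.1 and 27.7 CPM at 11 mg/kg/d. Replicates 05, 18 and 19 at 100 mg/kg/d had 25.5, 30.9 and 39.2 CPM, and the libraries at 300 mg/kg/d 30.5, 35.9, 33.9, 37.0 and 32.3 CPM. The 3 libraries at 1 mg/kg/d were above every vehicle library, and at 100 mg/kg/d replicate 05 was below the vehicle range, replicate 18 within it and replicate 19 above it. The log2 fold change was 0.03 (SE 0.138, adjusted p = 0.919) at 100 mg/kg/d (95% interval -0.26 to 0.32). It was 0.31 (adjusted p = 0.331) without replicates 05 and 18.

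Read as a set at 100 mg/kg/d against vehicle, 8 of the 10 members had negative log2 fold changes and 1, Cdh5, fell over all genes, where 1.52% of the 18005 genes tested were called (1.03% lower). At an unadjusted p under 0.05 there were 7 members, all lower, against 19.2% of all genes (8.68% lower). The median over members was -0.56, beside 0.05 over all genes. Cdh5, Kdr and Tek were lower in every library than in any vehicle library, as were 7.89% of all genes. Without replicates 05 and 18, 6 members were lower and 4 higher, and the median was -0.11, beside -0.0014 over all genes. Replicate 19 was then the only library of its dose and was assumed to vary like the other groups. Without replicate 19 instead, 9 members were called, all but Vwf, beside 23.2% of 18316 genes. Emcn was higher in that fit, at 0.58, the other 8 were lower, and the median was -0.91. The labels also give each library a sample code, whose meaning they do not state. Set against vehicle replicate 15 alone, the 2 libraries at 100 mg/kg/d that carry its code gave log2 ratios of -0.74 for Cdh5, -0.88 for Kdr and -0.53 for Tek. Replicate 18, which shares its code with vehicle replicate 01, gave -0.98, -0.76 and -0.32 against it. No library at 100 or 300 mg/kg/d carries the code found on vehicle replicate 08.

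**Figure D2:**
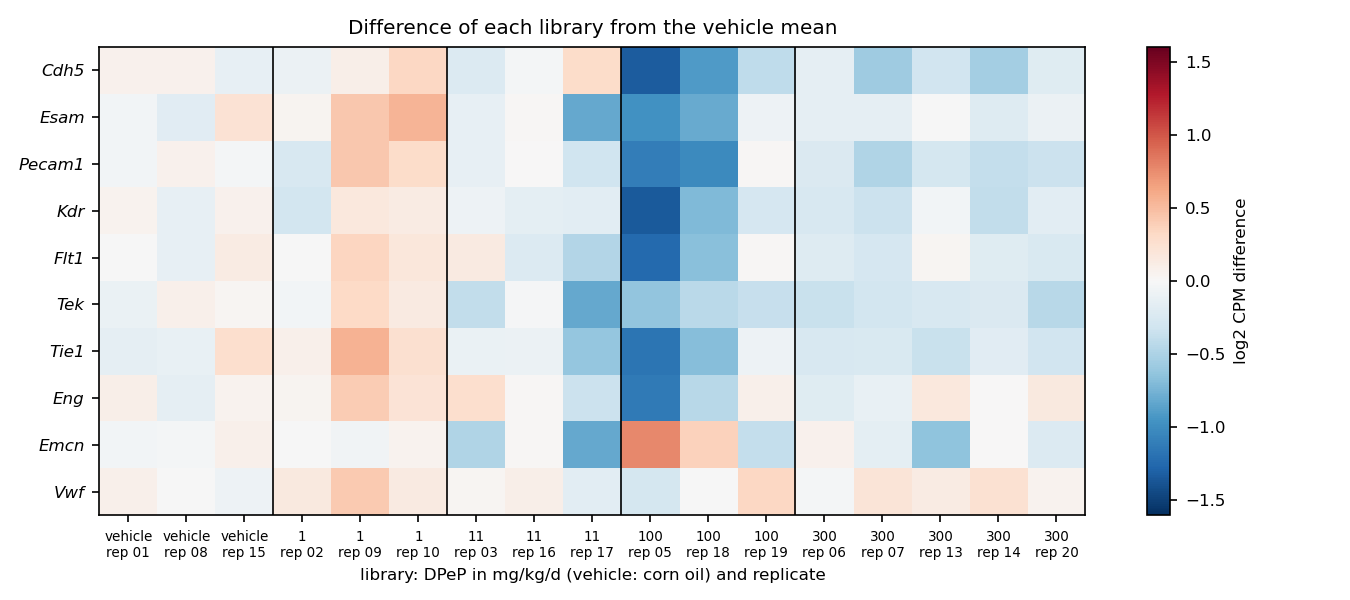
Difference in log2 CPM of each library (columns, by dose and replicate) from the vehicle mean, for each of the 10 endothelial genes (the horizontal lines of cells); blue is lower and red is higher than the vehicle mean. The median difference was -1.12 in replicate 05, -0.67 in replicate 18 and -0.08 in replicate 19, and Emcn is red in the first 2 of these.

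Library by library, 9 members in replicate 05 and 8 in replicate 18 were below all vehicle libraries, as were 35.2% and 30.5% of all genes tested. In replicate 19 there were 4 (Cdh5, Kdr, Tek and Emcn), beside 28.9% of all genes. Replicate 17 at 11 mg/kg/d had 9 members below as well, beside 27.2% of all genes, all but Cdh5, which was above vehicle there, and a median difference of -0.40. Its mitochondrial share was 5.16% and its ribosomal protein share 4.06%, unlike those of replicates 05 and 18. Each library at 300 mg/kg/d had 5 to 7 members below all vehicle libraries, beside 23.1%, 26.4%, 28%, 28.7% and 29.1% of all genes in replicates 06, 07, 13, 14 and 20. In replicates 09 and 10 at 1 mg/kg/d 9 and 8 members were above, beside 31.5% and 24.9% of all genes.

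**Figure D3:**
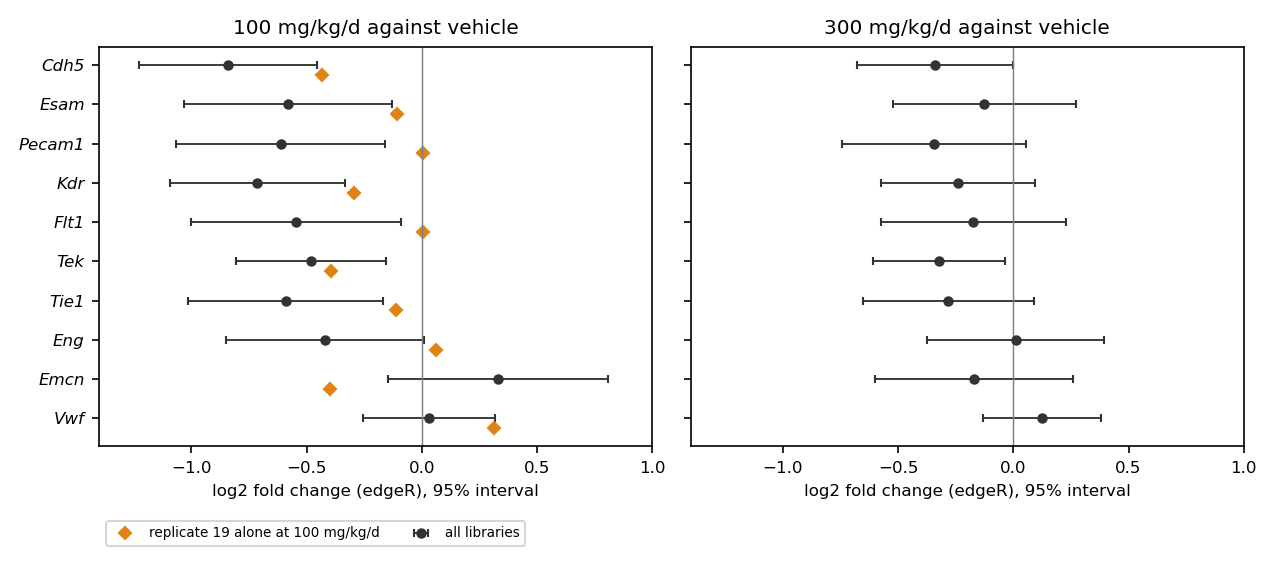
Log2 fold change against vehicle from edgeR for each of the 10 endothelial genes at 100 mg/kg/d (left) and 300 mg/kg/d (right). Circles with bars are the estimate from all libraries with its 95% interval, and diamonds are the estimate at 100 mg/kg/d from replicate 19 alone, which lies near 0 for Pecam1 and Flt1 and at -0.43 for Cdh5.

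Between 300 mg/kg/d and vehicle, 0 of 10 members were called by edgeR and 0 by DESeq2, where 2.40% of all genes were called by edgeR. Values leaned lower, with 8 of 10 below 0 and a median of -0.21, beside 0.01 over all genes. At an unadjusted p under 0.05 there were 2 members, Cdh5 and Tek, against 13.3% of all genes. Cdh5, Pecam1, Tek and Tie1 were lower in all 5 libraries than in any vehicle library, as were 6.48% of all genes. The interval for Kdr ran from -0.58 to 0.09 and that for Eng from -0.37 to 0.39. Among libraries that share a code, the 2 set against vehicle replicate 15 had log2 ratios of -0.30 for Cdh5, -0.35 for Pecam1, -0.31 for Tek and -0.57 for Tie1. The 3 set against vehicle replicate 01 had -0.36, -0.28, -0.23 and -0.10, so that the ratios of Tie1 differed most of these 4 between the codes.

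The step from 100 to 300 mg/kg/d compares no vehicle library, though those libraries were in the fit that gave its SE and p-values. In 300 against 100 mg/kg/d, 0 of 10 members were called by edgeR and 0 by DESeq2, with 0.00555% of all genes called by edgeR and more by DESeq2. In edgeR 5 members had an unadjusted p under 0.05 (Cdh5, Esam, Kdr and Eng higher and Emcn lower), against 24.2% of all genes. The median was 0.34, beside -0.01 over all genes. Cdh5 was 1.41-fold higher at 300 mg/kg/d, a log2 value of 0.50 (SE 0.167, adjusted p = 0.104), and Emcn was 1.42-fold lower, a log2 value of -0.50 (SE 0.203, adjusted p = 0.145). Against replicate 19 alone 4 members were higher and 6 lower, and the median was -0.05, beside 0.0069 over all genes. Cdh5 then had 0.08 (adjusted p = 0.988), Emcn 0.22 and Pecam1 -0.36 (adjusted p = 0.982 for both). Without replicate 19, 8 members were called, 7 higher and Emcn lower at -0.75, beside 32.1% of all genes.

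At 1 mg/kg/d 0 of 10 members were called by edgeR or DESeq2 and 0 had an unadjusted p under 0.05, while 0% of all genes were called and 4.95% had an unadjusted p under 0.05. Of the 10 members 9 had positive values, with a median of 0.18, and Vwf was above vehicle in every library, as were 6.47% of all genes. The highest was Esam at 0.35 (SE 0.212, adjusted p = 0.864). At 11 mg/kg/d 0 of 10 were called by either tool, again beside 0% of all genes called by edgeR, though DESeq2 called some genes. There 8 had negative values, the median was -0.15 and only Tek had an unadjusted p under 0.05, against 3.52% of all genes. The medians over all genes at these 2 doses were both 0.01.

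Over all 5 groups, the slope on log2(dose + 1) was negative for 9 of 10 members and called for 1, Tek, beside 5.72% of all genes called (2.98% with a negative slope). At an unadjusted p under 0.05 there were 7 members, all negative, against 19.1% of all genes (8.69% negative). Cdh5 had a slope of -0.071 (SE 0.0215, adjusted p = 0.0556), Pecam1 -0.066 (SE 0.0207, adjusted p = 0.0639) and Tie1 -0.064 (SE 0.0209, adjusted p = 0.0754). Leaving out replicates 05 and 18 made these slopes flatter, at -0.054 for Cdh5 and -0.050 for Pecam1, and narrowed their errors. In that fit 5 members were called (Cdh5, Pecam1, Kdr, Tek and Tie1), beside 9.07% of all genes, 1711 in number, against 1030 with all libraries. Emcn and Vwf had slopes near 0, at 0.0018 (SE 0.0248) for Emcn and -2.7e-06 (SE 0.0133) for Vwf.

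With all libraries most members varied together, apart from Emcn and in part Vwf. Over the 17 libraries, which share their depth and RNA quality across genes, the median Pearson correlation of log2 CPM was 0.68 over the 45 pairs and 0.84 over the 28 pairs without Emcn and Vwf. Flt1 and Eng were the closest pair (r = 0.95), and Emcn and Kdr the most opposed (r = -0.59). Without replicates 05 and 18 the 28 pairs had a median of 0.67, and the median correlation of Emcn with the other members was 0.25, against -0.40 with all libraries. Cdh5 then had the lowest median correlation with the other members, at 0.14, against 0.67 with all libraries, and Vwf had 0.44.

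Of 14467 genes with a symbol and a mean of at least 1 CPM, the 8 whose pattern over the 17 libraries was most like the members' mean were Elk3 (r = 0.95), Thsd1 (0.94), Cdc45 (0.94), Spns2 (0.92), Ets1 (0.92), Gpr107, Pomgnt1 and Lgr6 (each 0.91). Elk3 and Ets1 are transcription factors of the ETS family, and Cdc45 is a factor of DNA replication. Over the 15 libraries without replicates 05 and 18 the correlations of Elk3 and Ets1 were 0.88 and 0.81.

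With all libraries no ligand of these receptors passed the edgeR test. Of 8 further VEGF genes (ligands, the receptor Flt4 and the co-receptors Nrp1 and Nrp2), none was called at 100 or 300 mg/kg/d or on the slope. At 100 mg/kg/d 6 of the 8 had negative values, with a median of -0.23, and without replicates 05 and 18 the median was -0.08. With all libraries 3 had an unadjusted p under 0.05 at that dose, beside 19.2% of all genes (8.68% lower). Vegfa, the main ligand of Kdr, had 43.8, 56.7 and 73.2 CPM in replicates 05, 18 and 19, against 66.9, 57.7 and 77.6 CPM in vehicle, and its log2 fold change was -0.22 (SE 0.160, adjusted p = 0.458), and 0.10 without replicates 05 and 18. Replicate 05 was below the vehicle range, replicate 18 just below it and replicate 19 within it. Nrp1, which binds VEGF-A beside Kdr, had -0.43 (SE 0.177, adjusted p = 0.199), and -0.25 without replicates 05 and 18. Without replicate 19 instead, 4 of the 8 VEGF genes were called, all lower, with a median of -0.37, beside 23.2% of all genes. Vegfa had -0.42 in that fit, and it was called in 1 of its 13 alternatives.

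Of 5 genes around the angiopoietins, 0 were called by edgeR in any of these 3 fits. The ligands of Tek were expressed at low levels: Angpt1 had 7.0, 4.9 and 4.1 CPM at 100 mg/kg/d, against 5.8, 9.7 and 4.3 CPM in vehicle, and Angpt2 had 6.7, 5.5 and 6.1 CPM, against 4.3, 5.8 and 5.5 CPM. These ligands are named for their role, outside the rule for named genes. The 2 most expressed genes of the list, Angptl2 and Svep1, had log2 fold changes of -0.25 (SE 0.104, adjusted p = 0.197) and -0.58 (SE 0.331, adjusted p = 0.347) at 100 mg/kg/d. These became -0.17 and -0.09 without replicates 05 and 18. Of 6 tested genes of BMP9 signalling, in which Eng acts, all had negative values at 100 mg/kg/d, with a median of -0.20, and 0 were called. Acvrl1, at -0.64 (SE 0.171, adjusted p = 0.0656), and Bmpr2, at -0.34 (SE 0.160, adjusted p = 0.256), were the 2 with an unadjusted p under 0.05, beside 19.2% of all genes (8.68% lower). Both are named outside the rule for named genes. In the fit without replicates 05 and 18, 4 of the 6 were negative, with a median of -0.12, and the single values of Acvrl1 and Bmpr2 are not given. The most expressed of the 6, the targets Id1 and Id3, had -0.07 (SE 0.134) and -0.05 (SE 0.180) with all libraries. They had -0.17 and -0.12 without replicates 05 and 18. Without replicate 19 instead, 1 of the 5 angiopoietin genes and 2 of the 6 BMP9 genes were called, all lower, beside 23.2% of all genes.

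Several other vessel genes had called slopes. Of 27 further endothelial genes, 4 had a called negative slope and 0 a called positive one, with a median slope of -0.042, beside 5.72% of all genes called and 2.98% called negative. Cd34, a sialomucin of endothelium and of some other progenitor and stromal cells, had -0.052 (SE 0.0109, adjusted p = 0.00540), and the call held in 24 of 24 alternatives. At 300 mg/kg/d Cd34 had 227, 193, 221, 196 and 201 CPM, against 287, 265 and 319 CPM in vehicle (log2 fold change -0.48, SE 0.107, adjusted p = 0.0167). Every one of these libraries was below every vehicle library, as was the case for 6.48% of all genes. The call at 300 mg/kg/d held in 11 of 14 alternatives, and was lost without vehicle replicate 01 or 15 and with a term for the sample code, at adjusted p up to 0.143. The other 3 were Cd93, a receptor of endothelium and myeloid cells, with a slope of -0.041 (SE 0.0106, adjusted p = 0.0238), S1pr1, a receptor for sphingosine 1-phosphate, with -0.051 (SE 0.0134, adjusted p = 0.0247), and Gja4, a gap junction protein of arteries, with -0.056 (SE 0.0149, adjusted p = 0.0273). A term for the sample code ended all 3 of these calls, and so did leaving out replicate 09 at 1 mg/kg/d. Those of Cd93 and S1pr1 held in 21 of 24 alternatives each, being lost also without vehicle replicate 15 for Cd93 and 01 for S1pr1, at adjusted p up to 0.0897. That of Gja4 held in 18 of 24, being lost also on the dose rank and without replicate 10, 07 or 20, at adjusted p up to 0.109. The slopes of Cd34, Cd93, S1pr1 and Gja4 were -0.055, -0.035, -0.041 and -0.052 without replicates 05 and 18, all called. S1pr1 also fell at 100 mg/kg/d (log2 fold change -0.55, SE 0.138, adjusted p = 0.0495), the 1 call among the 27 there, beside 1.52% of all genes called (1.03% lower). It had 20.2, 20.9 and 30.9 CPM in replicates 05, 18 and 19, against 36.5, 34.7 and 33.8 CPM in vehicle. That call held in 5 of 13 alternatives and was lost in 8. Among those 8 were the fits that left out any vehicle library, or replicate 05 or 18. Without replicates 05 and 18 the value was -0.20. With replicate 19 left out instead, 12 of the 27 genes were called lower and 1 higher, beside 23.2% of all genes called.

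Of 17 tested transcription factors of endothelium, Lmo2 and Sox18 had called negative slopes and Foxf1 a called positive one, again beside 5.72% of all genes. Lmo2, an adaptor of blood and vessel development, had a slope of -0.063 (SE 0.0135, adjusted p = 0.00629), and at 300 mg/kg/d it fell (log2 fold change -0.57, SE 0.116, adjusted p = 0.00923), at 20.6, 19.6, 18.4, 17.8 and 19.0 CPM, against 28.9, 25.6 and 30.2 CPM in vehicle. All 5 of these libraries were below the vehicle range, as was the case for 6.48% of all genes. That call held in 12 of 14 alternatives, and was lost without vehicle replicate 01 or 15, at adjusted p up to 0.0752. Sox18, a regulator of vessel and lymphatic development, had a slope of -0.10 (SE 0.0235, adjusted p = 0.0113), with 6.8, 8.2 and 15.0 CPM at 100 mg/kg/d and 9.2 to 13.0 CPM at 300 mg/kg/d. In vehicle it had 17.7, 13.1 and 18.3 CPM. The slope calls of Lmo2 and Sox18 held in 24 of 24 alternatives, and that of Foxf1, 0.065 (SE 0.0181, adjusted p = 0.0360), in 15 of 24. The call of Foxf1 was lost without vehicle replicate 01 or replicate 02, 09, 18, 19, 14 or 20, without the low-count filter and with the sample code. The slopes of Lmo2, Sox18 and Foxf1 were -0.069, -0.085 and 0.068 without replicates 05 and 18, all called. None of the 17 was called at 100 mg/kg/d, where 11 had negative values and the median was -0.08, and without replicates 05 and 18 it was 0.03 over 18 genes. The most expressed of them, Ets1 and Ets2, had -0.38 (SE 0.146, adjusted p = 0.174) and -0.29 (SE 0.125, adjusted p = 0.220), against -0.06 and 0.02 without those libraries. With replicate 19 left out instead, 5 of 18 factors were called lower and 0 higher, beside 23.2% of all genes called.

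Dll4, the Notch ligand of sprouting tips and arteries, was the 1 called slope among 10 Notch and artery-vein genes, at -0.078 (SE 0.0173, adjusted p = 0.00790), held in 23 of 24 alternatives and lost with the sample code, and it was -0.071 without replicates 05 and 18. The 10 slopes were all negative, with a median of -0.023, and 1 of 10 called stands beside 5.72% of all genes. None of the 10 was called at 100 mg/kg/d, where the median was -0.31, and 0.05 without replicates 05 and 18. Nr2f2, a factor of vein identity that was also listed among fibroblast genes, had -0.26 (SE 0.141, adjusted p = 0.324) there. Ephb4, a receptor of veins, had -0.27 (SE 0.123, adjusted p = 0.245). Without those libraries the 2 values were 0.09 and 0.01. With replicate 19 left out instead, 6 of the 10 genes were called, all lower, with a median of -0.50, beside 23.2% of all genes.

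Of 9 pericyte genes (cells wrapped around vessels, and their ligand), 0 were called, and Pdgfrb had 99.7, 119 and 201 CPM in replicates 05, 18 and 19, against 225, 177 and 187 CPM in vehicle. Its log2 fold change of -0.49 (SE 0.185, adjusted p = 0.166) became 0.02 without replicates 05 and 18. Mcam, an adhesion molecule of pericytes and endothelium, had 85.5, 110.5 and 154 CPM in replicates 05, 18 and 19, against 133, 124 and 129 CPM in vehicle. Its log2 fold change of -0.14 (SE 0.152, adjusted p = 0.624) was 0.24 without replicates 05 and 18. The median over the 9 genes was -0.32 with all libraries and 0.10 without those 2. Without replicate 19 instead it was -0.48, and 5 of the 9 were called, all lower, beside 23.2% of all genes. Of 5 lymphatic genes 0 were called and 4 had positive values at 100 mg/kg/d. Prox1 had the largest, 1.28 (SE 0.351, adjusted p = 0.0709), and Lyve1 the 1 negative value, -0.18 (SE 0.373, adjusted p = 0.818). Both are named outside the rule for named genes, and their values without replicates 05 and 18 are not given. Pdpn had 0.55 (SE 0.238, adjusted p = 0.216), and 0.36 without replicates 05 and 18. Ccl21, a chemokine of lymphatic endothelium, had 0.91 (SE 0.664, adjusted p = 0.460), and 0.55 without them, at low levels of 2.5, 14.2 and 6.1 CPM in replicates 05, 18 and 19, against 1.4, 5.1 and 5.8 CPM in vehicle. In the fit without replicate 19, 1 of the 5 lymphatic genes was called, higher.

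**Figure D4:**
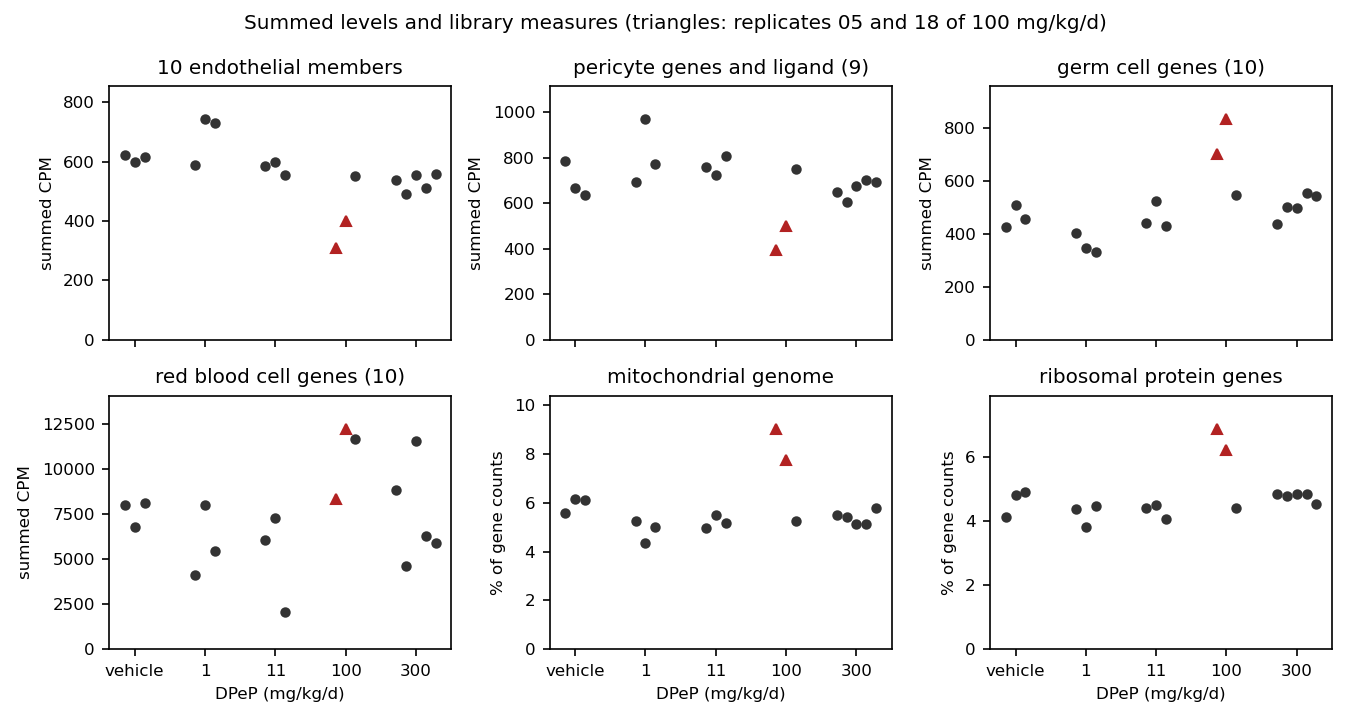
Summed level in CPM of the 10 endothelial genes, 9 pericyte genes, 10 germ cell genes and 10 red blood cell genes, and the share of gene counts taken by the mitochondrial genome and by ribosomal protein genes (vertical axes, from 0), in vehicle libraries and at 1, 11, 100 and 300 mg/kg/d. Points are single libraries; replicates 05 and 18 at 100 mg/kg/d (triangles) are the lowest for the endothelial and pericyte sums and the highest for germ cell genes and both shares.

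Summed markers of germ cells and red blood cells were above every vehicle library in each library at 100 mg/kg/d, while those of pericytes, platelets and macrophages overlapped vehicle. The 9 pericyte genes summed to 392 to 753 CPM at 100 mg/kg/d, against 635 to 784 CPM in vehicle, and the 10 germ cell genes to 545 to 833 CPM, against 426 to 509 CPM. The 10 red blood cell genes found summed to 8314 to 12223 CPM at 100 mg/kg/d, against 6784 to 8124 CPM, with Hba-a2 and Alas2 leading. Platelets share Esam, Pecam1 and Vwf with endothelium, and the 8 platelet genes summed to 38.0 to 48.5 CPM at 100 mg/kg/d, against 45.5 to 66.2 CPM. Of these Gp1bb was at 0 in 17 libraries and Ppbp in 6. The 10 macrophage genes gave 116 to 139 CPM at 100 mg/kg/d, against 126 to 140 CPM in vehicle. The 10 Leydig cell genes had a median log2 fold change at 100 mg/kg/d of -1.24 without replicates 05 and 18. It was -1.17 without replicate 19, with 8 genes lower and 2 higher. The part of these cells, of the mitochondrial share and of the ribosomal protein share in the levels of the 10 endothelial genes was not tested.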

How the data were processed

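Levels were measured by RNA sequencing in 17 libraries, and groups were taken from GEO's labels. Per the submitters' processing notes, the authors trimmed reads with Trimmomatic 0.36, aligned them with STAR 2.5.2b to mRatBN7.2 and counted them with featureCounts of Subread 1.5.2. Per the labels' protocols, the library kit was NEBNext Ultra II RNA. It keeps no record of strand. The deposited files hold raw counts of reads per gene and the exon length of the gene, per the file headers. Deposited TPM and log2 tables were not used.

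From these counts 92 spike-in entries were left out, and they were not used for scaling. CPM used TMM library sizes, log2 CPM a prior count of 2, and TPM were counts over length. Comparisons used edgeR 4.0.16 (quasi-likelihood F test, R 4.3.3), with filterByExpr (minimum count 10), 1 fit of 17 libraries, 18005 genes and a call at a Benjamini-Hochberg adjusted p under 0.05. Intervals are 95% t intervals. The scripts were tested on simulated data. DESeq2 1.42.0, other scalings and left-out libraries were alternatives. The labels do not say whether libraries had separate dams, so p-values measure the spread between these libraries.

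The 10 members and all gene lists were chosen with earlier results of these data known. The other lists named their called genes, at most 4 in each comparison, or, at 100 mg/kg/d, the 2 of highest TPM where none was called. Of 176 listed genes 171 matched a symbol. No libraries were identical, and the highest correlation within a group was 0.991.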

Additional observations from a re-analysis of the deposited data

Results flagged for a closer look

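In the 300 mg/kg/d group Flt1 had 23.5 CPM in replicate 13, far from the other 4 libraries, which lay between 19.1 and 20.0 CPM. The gap was 0.792 of the range of the group, above the critical value of 0.71 for 5 libraries. Chance alone sets 1 library apart in about 1 of 20 groups by this measure, and 10 genes were examined at this dose. Replicate 13 was also the highest of its group for Kdr, at 53.6 CPM, and the lowest for Emcn, at 14.9 CPM, though not by the same criterion.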

How the results depend on the processing

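No paired analysis was possible because the groups share no replicate number in the labels, and a fit with the sample code, which they do share, stands among the alternatives. Depth was similar in all libraries, and the small groups, with wide spread at 100 mg/kg/d, limit what could be called. At 100 mg/kg/d against vehicle the 1 called member became 2 with DESeq2's size factors in edgeR, in DESeq2's Wald test, without the low-count filter and with the gene length trend removed, and 0 with a term for the sample code, with the compared groups only and without replicates 05 and 18. Leaving out 1 library gave 0 to 9, and 0 to 8 for 300 against 100 mg/kg/d, the highest without replicate 19 in both. At 300 mg/kg/d against vehicle the count of 0 became 1 with the compared groups only. For the slope the 1 called member became 4 in DESeq2, 3 with the length trend removed, 5 without replicates 05 and 18, 0 without the filter, with the sample code or on the dose rank, and 0 to 4 with 1 library left out, the highest without replicate 05. At 1 and 11 mg/kg/d the count was 0 under every alternative run. For some of these fits, among them the slope in DESeq2 and with the length trend removed, the count over all genes is not given here. Whether the member counts there only followed a general rise in calls cannot be read from them. The cause of these shifts was not tested.

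Counts over all genes moved too. The 274 called at 100 mg/kg/d became 852 in DESeq2, 430 with the length trend removed, 45 with the compared groups only and 73 without replicates 05 and 18. The 432 at 300 mg/kg/d became 740, or 270 with the sample code and 835 with the compared groups only. The 1 gene of 300 against 100 mg/kg/d became 798 in DESeq2, 225 without the filter, and 0 with the sample code, with the compared groups only or without replicates 05 and 18. The 1030 of the slope became 586 with the sample code and 1711 without replicates 05 and 18. At 11 mg/kg/d the 0 became 26 in DESeq2, 19 without the filter, 1 with the code and 10 with the compared groups only, and at 1 mg/kg/d it became 1 without the filter and 3 with the compared groups only. With 1 library left out the ranges were 93 to 4250 at 100 mg/kg/d, 212 to 432 at 300 mg/kg/d, 0 to 5872 for 300 against 100 mg/kg/d (5872 without replicate 19) and 746 to 1503 for the slope.

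Log2 fold changes of single genes that changed sign included values near 0 and values as far from it as -0.40. Without replicates 05 and 18 the values at 100 mg/kg/d were 0.0039 for Pecam1, 0.0033 for Flt1, 0.060 for Eng, -0.40 for Emcn, 0.10 for Vegfa, 0.092 for Nr2f2, 0.0063 for Ephb4, 0.020 for Ets2, 0.24 for Mcam and 0.022 for Pdgfrb. For 300 against 100 mg/kg/d they were -0.031 for Esam, -0.36 for Pecam1, -0.19 for Flt1, -0.18 for Tie1, -0.060 for Eng, 0.22 for Emcn and -0.20 for Vwf. The slopes were -0.023 for Emcn and 0.0057 for Vwf, and on the dose rank -0.0087 for Emcn and 0.0060 for Vwf. With the length trend removed Kdr had -0.052 and Emcn 0.037 at 1 mg/kg/d, Eng -0.013 at 11 and -0.0077 at 300 mg/kg/d, Vwf -0.021 for 300 against 100 mg/kg/d, and Emcn a slope of -0.0036. Eng had -0.042 at 11 and -0.019 at 300 mg/kg/d with the sample code, and -0.0019 at 300 mg/kg/d with the compared groups only.

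With 1 library left out, Cdh5 ran from -0.0011 to 0.21 at 1 mg/kg/d and from -0.13 to 0.14 at 11 mg/kg/d, and Eng from -0.15 to 0.15 at 11 mg/kg/d and from -0.060 to 0.056 at 300 mg/kg/d. Emcn ran from -0.034 to 0.040 and Kdr from -0.070 to 0.15 at 1 mg/kg/d. Vwf ran from -0.067 to 0.060 at 11 mg/kg/d, from -0.15 to 0.15 at 100 mg/kg/d and from -0.040 to 0.27 for 300 against 100 mg/kg/d. Slopes ran from -0.014 to 0.012 for Emcn and from -0.0050 to 0.0079 for Vwf. At 100 mg/kg/d Id3 ran from -0.21 to 0.052 and Mcam from -0.39 to 0.022.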
